A study of Mus musculus with 112 samples.

Results

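The libraries described here are those of aged and young intestinal stem cells (ISCs), 23 of the 112 libraries of a study of the ageing mouse small intestine. They were chosen by their name in the count table, as the columns of cells with high Lgr5-GFP. The 12 aged samples came from 7 male mice, aged 24 months in 4 animals, 26 months in 2 and 27 months in 1, and from 5 female mice, aged 23 months in 1 animal and 24 months in 4. The 11 young samples came from 5 male and 6 female mice of 2 months. Every mouse, aged or young, was C57BL/6 and carried the Lgr5-eGFP-IRES-CreERT2 allele, in which the Lgr5 locus itself drives the green fluorescent protein and an inducible recombinase. Crypt cells of the proximal part of the small intestine were sorted as GFP high, Epcam high, CD24 low and negative for the dead-cell dye 7-AAD, and 1 ng of RNA per sample was read from its 3' ends by SC3-seq. Samples bear separate animal names, so the spread between samples is a spread between animals. For 1 aged female the age is given as 24 months here and as 23 months in the samples of its other cell types. The 3 mice of 26 and 27 months were all male, and their samples are the 3 aged ones whose name ends in 2, so that the oldest ages and this ending cannot be told apart.

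ISCs are the cycling columnar cells at the base of the crypt, wedged between Paneth cells, from which all lineages of the intestinal epithelium descend. Wnt ligands, amplified by R-spondins that bind Lgr5, hold them in the stem state, Notch signals from neighbouring Paneth cells keep them from becoming secretory cells, and BMP signals, strongest towards the villus, drive them to leave that state. With age, the crypt epithelium of the mouse is known for slower renewal and poorer regeneration after injury.

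The libraries held 2.18 to 5.55 M counts in aged samples (median 4.10 M), against 2.79 to 5.59 M in young samples (median 3.84 M), and 12605 to 13647 genes were detected per aged sample, against 12926 to 13955 per young sample. Markers of ISCs were present throughout. Olfm4, the secreted protein used to mark these cells, was the most abundant transcript, with 10958, 13891 and 17465 counts per M (CPM; lowest, median and highest sample, the order used for every group below) in aged samples, against 9029, 12395 and 16432 CPM in young samples. Lgr5, whose promoter sets the sorting gate, had 106, 143.8 and 198 CPM in aged samples, against 120, 182.3 and 205 CPM in young samples. Neither differed past the threshold (log2 aged over young 0.18 ± 0.08 SE for Olfm4 and -0.20 ± 0.11 for Lgr5; edgeR adjusted p 0.517 and 0.646). Smoc2, a secreted marker of the same cells, lay at 571 to 823 CPM in aged samples and at 591 to 819 CPM in young samples. The T cell gene Cd3e, the pan-leukocyte gene Ptprc, the macrophage gene Adgre1, the fibroblast genes Col3a1 and Pdgfra, the endothelial gene Cdh5 and the tuft cell cytokine Il25 had no count in any of the 23 samples, but 18 of 33 immune markers and 8 of 16 stromal and endothelial markers had counts in some. In 1 aged sample, female replicate 2, the immunoglobulin genes Igkc and Igha reached 259 and 171 CPM.

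Libraries differed first by how their sample names end, a property whose meaning the labels do not give. The first principal component, with 11.5% of the variance of genes above 10 CPM, put the 13 libraries whose name ends in 1 between -27.5 and -6.30 and the other 10 libraries between 10.5 and 25.2, with no overlap. Both classes held both ages and both sexes, with 7 aged and 6 young samples against 5 aged and 5 young samples. Between them 609 of 11958 genes differed (317 higher and 292 lower in names ending in 1). Gapdh, a glycolytic enzyme, had 132.1, 173 and 251 CPM in names ending in 1 and 572, 815 and 1002 CPM in the others. Of the 42 genes that differed by age, 3 were among the 609. Age effects within each class are therefore also given below for some genes and lists, and directions are summarised for the called genes. Pooling the other endings into 1 class was chosen after seeing the data.

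**Figure D1:**
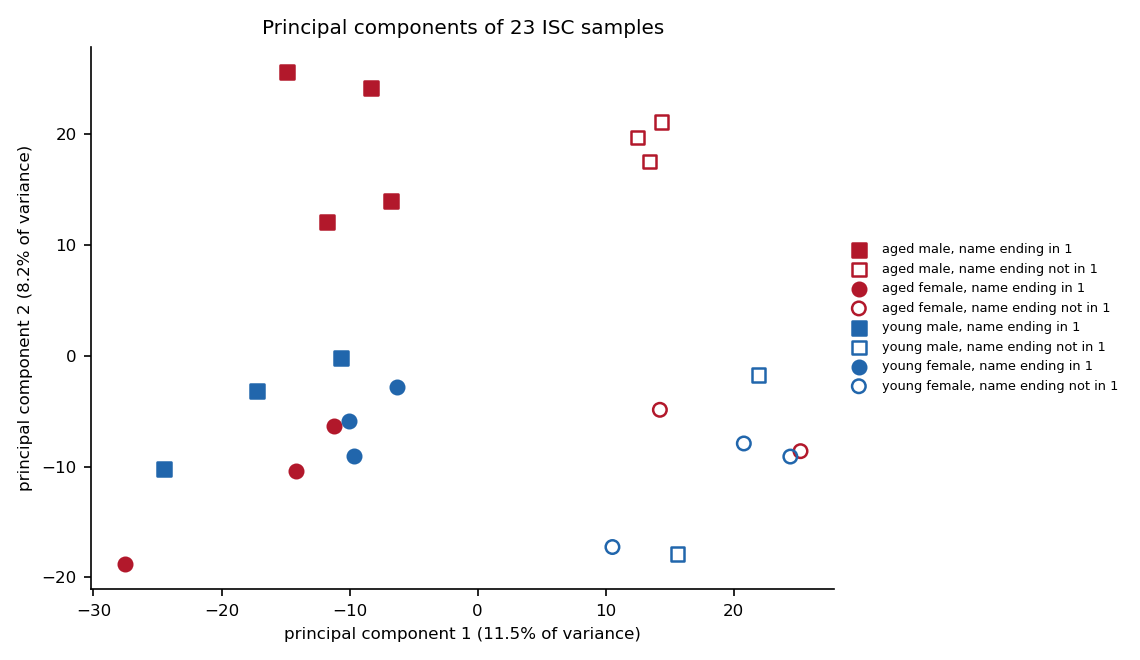
Scores of the 23 samples on the first 2 principal components of scaled log2 CPM (genes above 10 CPM), with symbols for age, sex and name ending. The first component separates the 13 libraries whose name ends in 1 from the other 10, and on the second the 7 aged males lie between 12.1 and 25.6, above every other sample.

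Few genes differed with age in these cells. Of 11958 genes tested, 42 passed an adjusted p of 0.05 (0.351%), 34 of them higher (0.284%) and 8 lower (0.0669%) in aged ISCs. They included the surface protein gene Ly6e, the serine protease gene Prss32, the carcinoembryonic antigen family gene Ceacam10 and the retinol-oxidising Adh1 among the higher genes, and the nucleoside transporter gene Slc28a2 and the neuronal growth factor gene Nrn1 among the lower ones. Across all genes there was no lean to either side, since 49.7% lay above 0 and the median log2 change was -0.002. At an unadjusted p of 0.05, 1064 genes passed (8.9%), 581 higher and 483 lower. Among 8965 genes above 10 CPM, 76.6% differed by less than 1.2-fold and 47 by more than 2-fold. Called genes were spread in size, with 15 higher and 7 lower by more than 2-fold and 20 by less. Correlations between samples had a median of 0.894 within aged, 0.904 within young and 0.894 between aged and young samples. These are correlations across genes, which are not independent replicates. None of the 20 most abundant genes was called. In sorted bulk RNA, fewer cells that express a gene and less RNA per cell cannot be told apart.

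**Figure D2:**
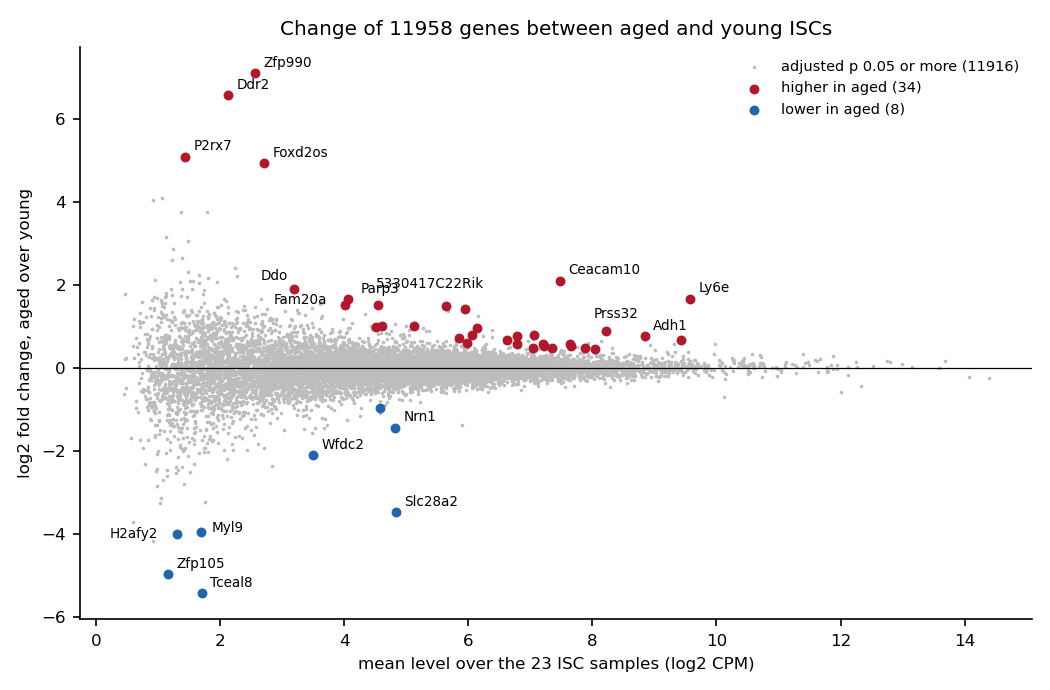
Log2 change, aged over young ISCs, against mean log2 CPM for the 11958 genes tested, with the 42 called genes coloured (34 higher, 8 lower). Most called genes above 100 CPM sit within a narrow band above 0, and changes of more than 4 log2 units are found among genes of a few CPM.

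The called genes are described by their known role, a grouping made after their values were seen, beginning with surface and secreted proteins. Ly6e, a GPI-anchored surface protein on chr15:74955051-74959905 (GRCm38), had 944, 1086 and 1444 CPM in aged samples, against 265, 358 and 480 CPM in young samples. Every aged sample lay above every young one, and the gene had the smallest p of all (1.68 ± 0.09, edgeR adjusted p 1.89e-16). Prss32, which encodes a trypsin-like serine protease (chr17:23843855-23859779), had 308, 377 and 469 CPM in aged samples, against 143, 218 and 290 CPM in young samples. These ranges did not overlap either (0.90 ± 0.11, adjusted p 1.46e-06). Ceacam10, a member of the carcinoembryonic antigen family (chr7:24777206-24784657), had 109, 296 and 427 CPM in aged samples, against 19.3, 59.7 and 101 CPM in young samples, again with no overlap (2.11 ± 0.24, adjusted p 2.24e-05). The gene listed as 5330417C22Rik, named Elapor1 in RefSeq and coding for a transmembrane protein of endosomes and lysosomes (chr3:108455694-108536536), had 41.2, 69.0 and 105 CPM in aged samples, against 11.04, 23.2 and 39.8 CPM in young samples. It too rose in every aged sample relative to every young one (1.49 ± 0.18, adjusted p 2.17e-06). Of all 11958 genes, 6 had ranges that did not overlap between ages (0.0502%), and all 6 were called. Besides these 4 they were the noncoding Foxd2os, whose lowest aged values rested on few counts, and the lower Slc28a2.

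Promoters at the RefSeq start are given for 4 of the 6 genes with separate ranges, to let the reader inspect their DNA. They run, in GRCm38.p6, from 250 bases before to 50 bases after the annotated start, read in the direction of the gene. For Prss32 the RefSeq start lies inside the gene span given above, and not at its edge. Of the 42 called genes, 29 matched a RefSeq promoter, 23 higher and 6 lower. In them 3 short motifs were searched on both strands, namely the interferon-stimulated element (GAAA and GAAA, 2 bases apart), the STAT site TTCNNNGAA and the NF-kB site (GGGA and CC, 4 bases apart), and capitals mark a match. A match is a description of letters, and such letters also stand in many other promoters.
Prss32, chr17:23853522-23853821, plus strand: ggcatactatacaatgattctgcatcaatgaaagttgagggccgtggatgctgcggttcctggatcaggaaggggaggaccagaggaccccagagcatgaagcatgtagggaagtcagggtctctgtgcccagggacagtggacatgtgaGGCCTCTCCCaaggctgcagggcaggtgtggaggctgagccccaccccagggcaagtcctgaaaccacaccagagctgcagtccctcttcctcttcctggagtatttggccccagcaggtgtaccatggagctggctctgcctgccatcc
Ceacam10, chr7:24776917-24777216, plus strand: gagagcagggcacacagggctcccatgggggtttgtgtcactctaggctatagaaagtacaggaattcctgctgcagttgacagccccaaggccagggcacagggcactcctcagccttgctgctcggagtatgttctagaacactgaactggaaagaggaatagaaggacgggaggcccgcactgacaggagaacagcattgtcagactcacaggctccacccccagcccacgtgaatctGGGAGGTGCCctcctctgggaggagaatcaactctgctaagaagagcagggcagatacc
Elapor1, chr3:108536492-108536791, minus strand: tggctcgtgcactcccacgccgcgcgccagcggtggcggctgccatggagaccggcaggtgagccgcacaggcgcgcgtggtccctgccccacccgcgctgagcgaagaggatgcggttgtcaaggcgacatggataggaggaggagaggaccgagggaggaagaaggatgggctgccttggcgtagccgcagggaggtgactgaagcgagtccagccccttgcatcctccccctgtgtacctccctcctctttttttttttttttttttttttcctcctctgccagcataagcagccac
Slc28a2, chr2:122426185-122426484, plus strand: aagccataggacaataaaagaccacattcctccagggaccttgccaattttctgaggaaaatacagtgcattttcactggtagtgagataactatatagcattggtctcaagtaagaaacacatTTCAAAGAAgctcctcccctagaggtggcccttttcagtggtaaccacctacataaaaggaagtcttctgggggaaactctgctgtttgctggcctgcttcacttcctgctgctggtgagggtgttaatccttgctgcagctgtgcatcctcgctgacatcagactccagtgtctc
Some genes have more than 1 promoter in the table, and a gene is counted where any of them holds the letters. The NF-kB letters were found for 9 of the 23 higher genes (Prss32, Ceacam10, Fam20a, Gm1123, Apobec3, Pts, Ptpn6, Tmem205 and Gadd45g) and for 0 of the 6 lower genes, beside 22.9% of the 27025 genes with a promoter. The interferon letters were found for 2 of the 23 (Apobec3 and Ogfr) and 0 of the 6, beside 3.99% of all these genes. STAT letters were found for 1 of the 23 (Tmem205) and 1 of the 6 (Slc28a2), beside 9.55%.

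**Figure D3:**
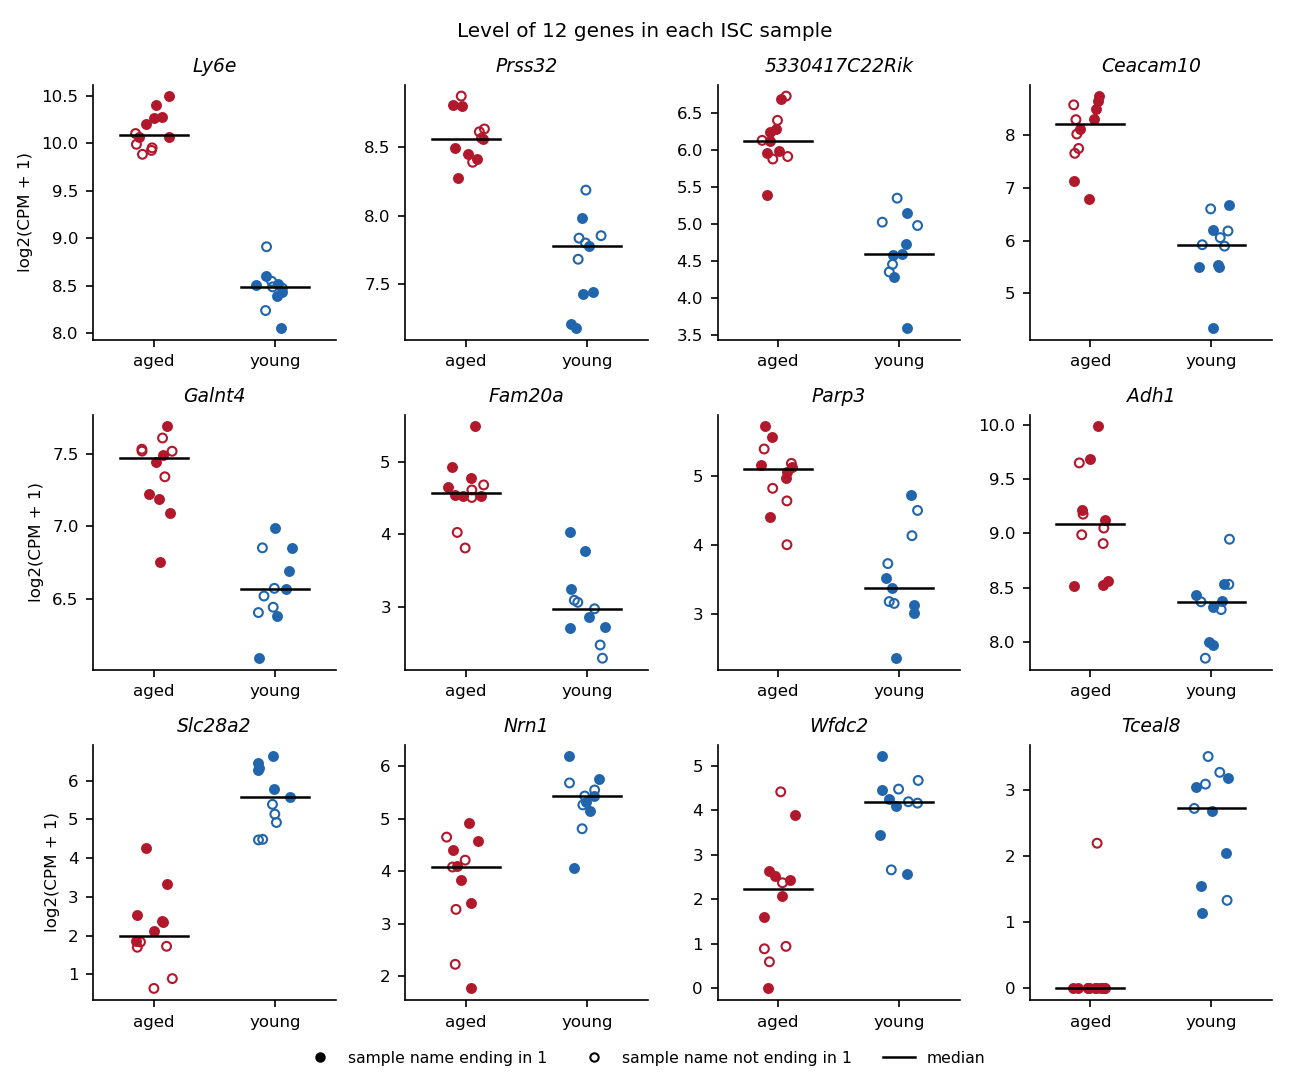
Level of 12 called genes, as log2(CPM + 1), in each aged (left) and young (right) sample, with filled points for sample names ending in 1, open points for the others and a bar at the median. Aged and young points do not meet for Ly6e, Prss32 and Ceacam10, whether filled or open.

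Other genes of the secretory pathway and the surface were higher as well. Galnt4, an enzyme that starts the O-linked glycans of mucins, had 107, 176 and 205 CPM in aged samples, against 67.2, 94.1 and 126.03 CPM in young samples (0.81 ± 0.11, edgeR adjusted p 2.24e-05), and 11 of the 12 aged samples lay above all young ones. It overlaps Poc1b on the same strand, a gene that stood at 0.01 with an adjusted p of 0.997. Fam20a, a pseudokinase that assists the phosphorylation of secreted proteins, had 13.1, 22.9 and 44.0 CPM in aged samples, against 3.90, 6.86 and 15.4 CPM in young samples (1.66 ± 0.25, adjusted p 0.000137). In 10 of 12 aged samples it exceeded the highest young one. Prelp, a leucine-rich proteoglycan of the extracellular matrix, rose less, with 235, 300 and 365 CPM in aged samples, against 137, 228 and 257 CPM in young samples (0.46 ± 0.10, adjusted p 0.0118). Tmem205, a transmembrane protein gene, had 80.0, 113 and 166 CPM in aged samples, against 42.7, 80.2 and 107 CPM in young samples (0.68 ± 0.14, adjusted p 0.0129).

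Receptors of the surface that ISCs barely expressed in youth were also among the higher genes. Ddr2, a receptor tyrosine kinase for collagen, had 0, 4.71 and 29.7 CPM in aged samples, of which 1 was at 0, against 0, 0 and 0.358 CPM in young samples, of which 9 were at 0. In all it gathered 363 counts in aged libraries and 2 in young ones (edgeR adjusted p 2.24e-05), a ratio of 159 with an exact 95% interval of 43.8 to 1320 that covers counting error only. P2rx7, an ion channel opened by extracellular ATP, had 0, 2.92 and 12.2 CPM in aged samples, of which 1 was at 0, against 0, 0 and 2.36 CPM in young samples, of which 10 were at 0 (5.10 ± 1.05, adjusted p 0.0118). Both were thus detected in 11 of 12 aged samples, against 2 of 11 and 1 of 11 young samples. They passed the filter on low counts through their aged samples only.

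Surface and secreted proteins were lower in 2 cases. Nrn1, a GPI-anchored neurotrophic factor that is also among the markers of ISCs, had 2.41, 15.99 and 29.3 CPM in aged samples, against 15.7, 42.01 and 71.4 CPM in young samples (-1.43 ± 0.27, edgeR adjusted p 0.00404). It was the 1 called of 24 ISC marker genes measured, beside 0.351% of all genes. Wfdc2, a secreted protein of the protease inhibitor family with a WAP domain, had 0, 3.69 and 20.3 CPM in aged samples, against 4.93, 17.2 and 35.8 CPM in young samples (-2.09 ± 0.41, adjusted p 0.00652). The ranges of both genes overlapped between ages.

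Transporters changed in both directions. Slc28a2, the sodium-coupled carrier that brings purine nucleosides into the cell (chr2:122426477-122461137), had 0.554, 3.00 and 18.3 CPM in aged samples, against 21.1, 47.1 and 97.6 CPM in young samples (-3.47 ± 0.42, edgeR adjusted p 2.24e-05). The highest aged sample, female replicate 2, lay just under the lowest young one. The next aged female reached 4.06 CPM, and aged males reached up to 9.08 CPM. Slc39a4, the zinc importer ZIP4, had 105, 191 and 297 CPM in aged samples, against 113, 130 and 172 CPM in young samples (0.49 ± 0.12, adjusted p 0.0473). It stayed called in 7 of the 23 fits that left out 1 sample, with an adjusted p of up to 0.1297 (without aged female replicate 1). Of 33 nucleoside and other solute carriers measured, these were called, 1 higher and 1 lower, beside 0.351% of all genes. The list's median was 0.06. Slc30a2, a zinc exporter into vesicles, had 10.2, 16.1 and 30.5 CPM in aged samples, against 15.4, 28.7 and 45.7 CPM in young samples, and did not pass (-0.80 ± 0.22, adjusted p 0.119).

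Enzymes of small-molecule metabolism that were called were all higher in aged samples. Adh1, an alcohol dehydrogenase that oxidises ethanol and retinol, had 364, 543 and 1014 CPM in aged samples, against 229, 329 and 492 CPM in young samples (0.77 ± 0.14, edgeR adjusted p 0.00492). Cyp2c65, a cytochrome P450, had 36.6, 66.9 and 112 CPM in aged samples, against 26.6, 40.4 and 59.5 CPM in young samples (0.74 ± 0.15, adjusted p 0.0118). They were the 2 called of 42 measured genes of xenobiotic and retinoid metabolism, beside 0.351% of all genes. The list's median was 0.03. Pts, which acts in the synthesis of the cofactor tetrahydrobiopterin, had 89.8, 149 and 214 CPM in aged samples, against 85.9, 107.9 and 118 CPM in young samples (0.49 ± 0.10, adjusted p 0.0118), with 11 of 12 aged samples above all young ones. Ggt6, of the gamma-glutamyltransferase family, had 48.5, 70.0 and 101 CPM in aged samples, against 34.4, 51.0 and 67.7 CPM in young samples (0.62 ± 0.13, adjusted p 0.0129).

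At lower levels, Upb1, the last enzyme of pyrimidine breakdown, had 6.96, 22.7 and 40.7 CPM in aged samples, against 1.45, 8.06 and 20.5 CPM in young samples (1.53 ± 0.33, edgeR adjusted p 0.0139). Ddo, which oxidises D-aspartate, had 4.61, 10.8 and 45.2 CPM in aged samples, against 0.417, 3.51 and 11.7 CPM in young samples (1.92 ± 0.43, adjusted p 0.0252). The ranges of both genes overlapped. Leaving out 1 sample at a time, Upb1 was called in 22 of 23 fits (adjusted p 0.0767 without aged female replicate 3) and Ddo in 18 of 23 (at most 0.0917, without aged male replicate 3).

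A further group of called genes restrains or relays signals. Socs2, an inhibitor of growth hormone and cytokine receptor signals, had 157, 205 and 372 CPM in aged samples, against 125.6, 179 and 200 CPM in young samples (0.53 ± 0.10, edgeR adjusted p 0.0033), with 7 aged samples above all young ones. Ptpn6, the phosphatase SHP-1 that dampens receptor signals, had 15.4, 30.7 and 51.0 CPM in aged samples, against 10.5, 14.8 and 22.7 CPM in young samples (1.02 ± 0.22, adjusted p 0.0129). Ptpn6 was not called by limma-voom. It is best known from blood cells. Immune markers (15 of 33 at 0 in every sample, Ptprc among them) summed to 3.94, 12.1 and 446 CPM in aged samples, against 6.31, 14.4 and 20.4 CPM in young samples. Ptpn6 stayed called with this sum as a covariate, and the part of immune cells in its change was not otherwise tested. Id1 and Id3 are inhibitors of helix-loop-helix factors and standard targets of BMP signals. Id1 had 206, 273 and 337 CPM in aged samples, against 99.9, 199 and 251 CPM in young samples (0.49 ± 0.11, adjusted p 0.0316). Id3 had 165, 232 and 310 CPM in aged samples, against 67.6, 151 and 222 CPM in young samples (0.58 ± 0.13, adjusted p 0.0363). With 1 sample left out, Id1 stayed called in 14 of 23 fits (adjusted p at most 0.0909, without aged female replicate 1) and Id3 in 11 (at most 0.105, without young male replicate 4). Of 13 measured BMP response genes these 2 were called, beside 0.351% of all genes, on a list written with earlier results of these data known. The list's median was 0.16, and it stood at -0.14 within names ending in 1 and at 0.43 within the others.

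Of the regulators of growth and the cytoskeleton, Gadd45g, a stress-inducible regulator of cell cycle arrest, had 16.8, 46.0 and 105 CPM in aged samples, against 10.7, 21.5 and 37.7 CPM in young samples (1.02 ± 0.23, edgeR adjusted p 0.0312). Its highest value came from aged female replicate 2, the sample with immunoglobulin transcripts, and without it the adjusted p was 0.118. It stayed called in 13 of the 23 fits with 1 sample left out. Cdk2ap2, a partner of the cell cycle kinase CDK2, had 77.1, 183 and 235 CPM in aged samples, against 80.6, 115 and 158 CPM in young samples (0.59 ± 0.13, adjusted p 0.0218). Ogfr, a receptor for the opioid growth factor, had 72.9, 131 and 175 CPM in aged samples, against 64.4, 92.2 and 103 CPM in young samples (0.59 ± 0.14, adjusted p 0.0299). With 1 sample left out, Cdk2ap2 stayed called in 19 of 23 fits (adjusted p at most 0.0547, without aged male replicate 6), Ogfr in 14 (0.0726, without aged female replicate 5) and Cdc42bpg in 15 (0.0754, without young female replicate 5). Lower in aged samples were the Cdc42-regulated kinase Cdc42bpg (-0.95 ± 0.22, adjusted p 0.0312) and Myl9, the regulatory light chain of myosin II. Cdc42bpg had 8.13, 14.7 and 30.8 CPM in aged samples, against 12.6, 29.2 and 56.4 CPM in young samples. Myl9 had 0, 0.220 and 1.67 CPM in aged samples, of which 4 were at 0, against 0, 5.25 and 13.1 CPM in young samples, of which 1 was at 0 (-3.94 ± 0.75, adjusted p 0.00404). Myl9 passed the filter on low counts through its young samples and was not called by limma-voom. It is abundant in smooth muscle, and stromal and endothelial markers (8 of 16 at 0 in every sample) summed to 1.70 to 23.8 CPM in aged samples, against 1.66 to 21.0 CPM in young samples; their part in this change was not tested.

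Among genes that act on nucleic acids, Apobec3, a cytidine deaminase that restricts retroviruses, had 138, 173 and 225 CPM in aged samples, against 87.5, 119 and 152 CPM in young samples (0.53 ± 0.11, edgeR adjusted p 0.00883), and 9 of 12 aged samples lay above all young ones. Parp3, an ADP-ribosyltransferase of DNA break repair, had 15.04, 33.3 and 51.8 CPM in aged samples, against 4.12, 9.37 and 25.6 CPM in young samples (1.52 ± 0.26, adjusted p 0.00111). In this group the lower genes had low levels and passed the filter on low counts through their young samples. H2afy2, which encodes the histone variant macroH2A2, had 0, 0 and 2.41 CPM in aged samples, of which 7 were at 0, against 0, 2.96 and 9.79 CPM in young samples (-3.98 ± 0.83, adjusted p 0.0118), and limma-voom did not call it. Tceal8, an X-linked gene of the transcription elongation factor A-like family, was at 0 in 11 of 12 aged samples with 3.59 CPM in the other, against 1.21, 5.61 and 10.4 CPM in young samples (-5.41 ± 0.99, adjusted p 0.0033). Zfp105, a zinc finger gene, was at 0 in 11 of 12 aged samples with 2.20 CPM in the other, against 0, 3.14 and 7.72 CPM in young samples, of which 1 was at 0 (-4.96 ± 1.03, adjusted p 0.0127). In single aged samples Tceal8 and Zfp105 thus reached levels inside the young range.

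Zfp990, a further zinc finger gene, split the aged animals. It had 0, 11.7 and 29.3 CPM in aged samples, of which 5 were at 0, against 0, 0 and 0.214 CPM in young samples, of which 9 were at 0. Over all libraries it had 519 counts in aged and 2 in young samples (edgeR adjusted p 0.0026), a ratio of 228 with an exact 95% interval of 62.7 to 1885 for counting error. It passed the filter on low counts through its aged samples only, and it was not called by limma-voom. Above 1 CPM it was found in 7 of the 12 aged ISC samples. The same animals' other cells showed the same split. Progenitors of 3 such animals had 2.68 to 11.6 CPM and those of 2 animals without it had none, and Paneth cells of 4 such animals had 1.04 to 3.33 CPM, against at most 0.301 CPM in those of 4 animals without it. The 1 CPM line was drawn after these values were seen, and this division of animals received no test.

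Among noncoding RNAs, Foxd2os had 1.48, 9.57 and 22.9 CPM in aged samples, against 0, 0.214 and 0.936 CPM in young samples, of which 5 were at 0 (4.95 ± 0.61, edgeR adjusted p 2.17e-06). Every aged sample lay above every young one in CPM, but few counts set the lowest aged values. Aged female replicate 4 had 5 counts and aged male replicate 3 had 8, against 5 in young male replicate 2. Foxd2os passed the filter on low counts through its aged samples only. AI427809, named Mexis in RefSeq, had 15.4, 29.6 and 40.6 CPM in aged samples, against 7.68, 12.9 and 26.6 CPM in young samples (1.00, adjusted p 0.0200). The antisense gene Gm15947, with 52.5, 89.2 and 141 CPM in aged samples, against 21.2, 43.5 and 76.4 CPM in young samples (0.97, adjusted p 0.00122), overlaps Prss32. Tnfsf13os, with 49.3, 83.1 and 104 CPM in aged samples, against 18.5, 42.7 and 85.9 CPM in young samples (0.81 ± 0.19, adjusted p 0.0327), overlaps Tnfsf13 on the opposite strand, a gene that stood at -0.03. Tnfsf13os stayed called in 12 of 23 fits with 1 sample left out (adjusted p at most 0.0920, without young male replicate 4), and AI427809 in 22 (0.0676, without aged female replicate 1). Whether counting took strand into account is not stated, so reads of such pairs cannot be told apart. The last called gene, the predicted gene Gm1123, had 536, 849 and 1057 CPM in aged samples, against 309, 494 and 754 CPM in young samples (0.69, adjusted p 0.00100).

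Gene groups of stem cell function had list medians between -0.15 and 0.01. With 0.351% of all genes called, a list of this size without a call is no result about its genes. Of 28 measured genes of DNA replication and S phase none was called, although 24 lay below 0, with a median of -0.15. The replicative helicase subunit Mcm3 had 85.9, 161 and 191 CPM in aged samples, against 167.03, 209.9 and 244 CPM in young samples (-0.35, edgeR adjusted p 0.175). Within names ending in 1 the median of this list was -0.09, and within the others it was -0.20. Of 28 mitotic genes none was called, with 17 below 0 and a median of -0.06. The topoisomerase Top2a had 263, 331 and 437 CPM in aged samples, against 278, 424 and 569 CPM in young samples (-0.35 ± 0.10, adjusted p 0.174), and the proliferation marker Mki67 stood at -0.18 (adjusted p 0.86). Of 26 genes of Wnt targets and receptors and of 16 Notch pathway genes none was called, with medians of -0.03 and 0.01. Ascl2, the Wnt-driven transcription factor of ISCs, had 223, 303 and 409 CPM in aged samples, against 186, 242 and 340 CPM in young samples (0.28 ± 0.11, adjusted p 0.38), and the Wnt target Ccnd1 stood at -0.47 ± 0.15 (adjusted p 0.247). Of 30 ribosome biogenesis genes none was called and 9 lay above 0 (median -0.12). Among 11 regeneration-associated genes Ly6e alone was called, beside 0.351% of all genes. The revival stem cell marker Clu stood at -1.41 (edgeR adjusted p 0.399).

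Genes of antigen presentation and mucosal defence leaned higher without passing the threshold singly. All 7 measured genes of MHC class II lay above 0, with a median of 0.62, and none was called, beside 0.351% of all genes. H2-Aa, an alpha chain of class II, had 168, 428 and 639 CPM in aged samples, against 38.0, 177 and 356 CPM in young samples (0.95, edgeR adjusted p 0.179). The median of this list was 0.49 without aged female replicate 2, 0.90 within names ending in 1 and 0.16 within the others. Of 24 genes of MHC class I and the immunoproteasome 20 lay above 0 (median 0.26) and none was called. Psmb8, a catalytic subunit of the immunoproteasome, had 282, 585 and 869 CPM in aged samples, against 176, 302 and 531 CPM in young samples (0.71, adjusted p 0.0887). Of 41 interferon response genes the same Ly6e alone was called, beside 0.351% of all genes, and the median was 0.13. Of 16 antimicrobial genes 13 lay above 0, with a median of 0.64 that was 0.35 without aged female replicate 2, 0.18 without aged male replicate 4 and 0.18 within names not ending in 1. Duox2, an oxidase that releases hydrogen peroxide into the lumen, had 25.6, 51.9 and 73.7 CPM in aged samples, against 6.43, 24.0 and 50.5 CPM in young samples (0.97, adjusted p 0.0589). Nos2, the inducible nitric oxide synthase, had 0, 14.8 and 33.0 CPM in aged samples, against 2.68, 3.94 and 12.6 CPM in young samples (1.60, adjusted p 0.0713).

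Immediate early genes, which respond to tissue dissociation as well as to signals, leaned higher in 15 of 20 measured members, with a median of 0.45. None of them was called, beside 0.351% of all genes. Fos, the AP-1 subunit, had 64.5, 87.2 and 164 CPM in aged samples, against 14.3, 27.7 and 130 CPM in young samples (1.26, edgeR adjusted p 0.0589). The median was 0.15 within names ending in 1, with none called (0.148% of all genes in that class), and 0.94 within the others, with 5 of the 20 called (0.179% of all genes) in a fit chosen after seeing the data. Fos was called there, with an adjusted p of 0.00176. Of 22 p53 targets and senescence genes none was called (median 0.11), nor was any of 28 genes of the unfolded protein response (median 0.09). Of 58 nuclear genes of the respiratory chain 44 lay above 0, with a median of 0.09 and none called. All 7 mitochondrially encoded genes measured lay below 0, with a median of -0.21 and none called. All 13 mitochondrially encoded genes, of which 12 had a count, were summed for their share of the counts. This share was 5.63 ± 1.56% in aged and 6.27 ± 1.93% in young samples (SD, n = 12 and 11). Permutation of age within sex gave a two-sided p of 0.247, adjusted over 8 measures 0.617.

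Other groups of epithelial function are given by their medians. With 0.351% of all genes called, a list without a call is no result about its genes. None was called among 82 cytosolic ribosomal protein genes (median 0.02), 23 claudin and junction genes (0.03), 32 genes of fatty acid oxidation (0.02), 23 of cholesterol synthesis (0.12), 30 chromatin regulators (-0.05) and 23 genes of NF-kB and inflammation (0.25, of which 21 lay above 0). The tight junction gene Cldn3 had 931, 1096 and 1488 CPM in aged samples, against 639, 889 and 1100 CPM in young samples (0.35 ± 0.09, edgeR adjusted p 0.0589). In all, 34 genes had an adjusted p between 0.05 and 0.10, of which 23 stood higher and 11 lower. Uaca, a regulator of stress-induced apoptosis, had 127.7, 153 and 196.3 CPM in aged samples, against 153.5, 221 and 286 CPM in young samples (-0.45 ± 0.11, adjusted p 0.0532). Tst, the mitochondrial sulfurtransferase rhodanese, had 32.7, 41.97 and 76.7 CPM in aged samples, against 22.7, 27.9 and 36.5 CPM in young samples (0.67 ± 0.16, adjusted p 0.0576). None of these passed.

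**Figure D4:**
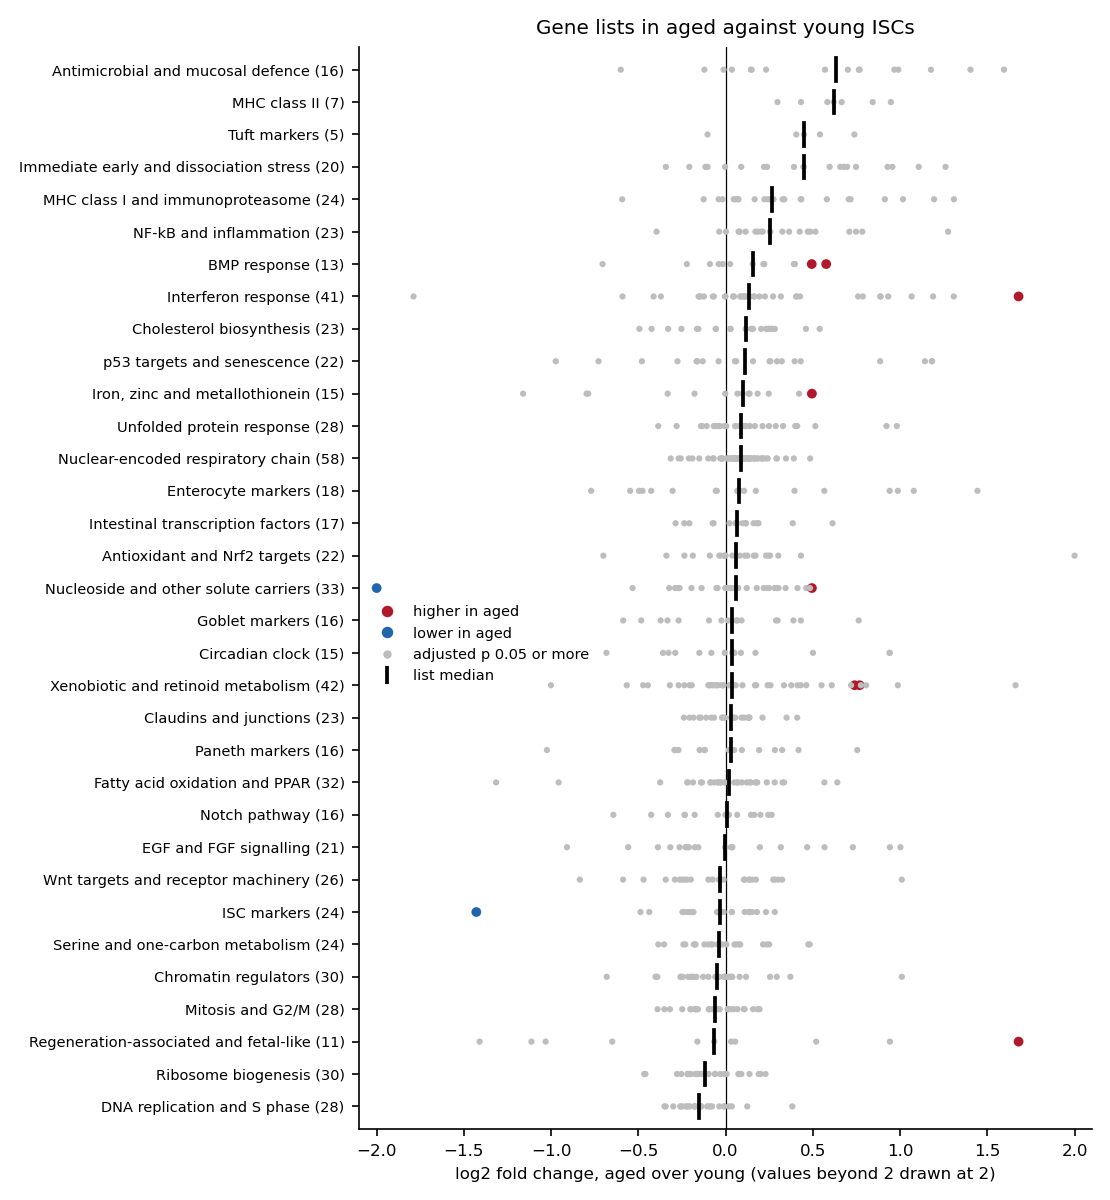
Log2 change, aged over young ISCs, of the measured members of gene lists with 5 or more of them (their number in brackets; values beyond 2 drawn at 2), with a tick at each list's median, called members coloured and a line at 0. All 7 members of MHC class II lie above 0 and 24 of the 28 members of DNA replication and S phase below it, and no member of either list was called.

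Markers of other cell types were summed per sample to see which of them moved with age. Enteroendocrine markers summed to 1.48, 45.6 and 74.4 CPM in aged samples, against 5.21, 15.96 and 71.3 CPM in young samples (log2 1.10; permutation of age within sex, two-sided p 0.0229, adjusted over 8 measures 0.183). With single samples left out this sum ranged from 0.97 to 1.39. The highest value, without aged male replicate 4, had a permutation adjusted p of 0.00312. Within names ending in 1 the sum stood at 1.16 (permutation adjusted p 0.337), and within the others at 1.02 (0.486). Chgb, a granule protein of these cells, stood at 1.58 ± 0.77 (edgeR adjusted p 0.571). Paneth markers summed to 382.2, 723 and 1884 CPM in aged samples, against 442, 708 and 2246 CPM in young samples, a log2 difference of 0.00. Enterocyte markers summed to 1125, 1251 and 1314 CPM in aged samples, against 1011, 1251 and 1396 CPM in young samples (0.02). Tuft, goblet, stromal and immune sums stood at 0.48, 0.23, 0.34 and 0.25, with permutation p of 0.0664, 0.406, 0.309 and 0.800. The immune sum was -0.25 without aged female replicate 2. Apart from a fit with the immune sum as a covariate, the part of these cells in the changes of single genes was not tested. That fit called 45 genes, 40 of them among the 42.

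Both classes of libraries gave the same directions. Of the 42 called genes 41 were measured in each class, all 41 had the same direction in both, and 38 had an unadjusted p below 0.05 in both. The classes share no sample, but the 42 were chosen on their pooled data. Fitted alone, names ending in 1 gave 18 called genes of 12152 (0.148%, 16 higher), and the others gave 21 of 11711 (0.179%, 17 higher). Each list held 12 of the 42, and 7 genes were in both, namely Ly6e, Prss32, Ceacam10, Foxd2os, 5330417C22Rik, Gm1123 and Slc28a2. Ly6e stood at 1.83 within names ending in 1 and at 1.46 within the others, and Slc28a2 stood at -3.43 and -4.03. The planned fit with the 3 name endings as covariate called 45 of 11958 genes, 33 of them among the 42. It lost the calls of Wfdc2, Prelp, Upb1, Ddo, Gadd45g, Id1, Tnfsf13os, Id3 and Slc39a4. With the class as a covariate, a fit chosen after seeing the data, 65 genes were called (0.544%), which held all 42 and 23 more. The additional genes included Fos (1.29, edgeR adjusted p 0.0270), Psmb9 (0.70, 0.0141), Duox2 (1.01, 0.0345), the lipopolysaccharide co-receptor gene Cd14 (0.78, 0.0386), the class I gene H2-D1 (0.55, 0.0421) and Nos2 (1.61, 0.0458).

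Within each sex fewer genes were called. In males 25 genes were called (0.209%), 17 higher and 8 lower, of which 21 were among the 42. In females 9 were called (0.0753%), 8 higher and 1 lower, all 9 among the 42. Whether these counts differ between the sexes was not tested. All 42 had the same sign in both sexes, which their choice by the mean over sexes favours. No gene was called for a difference of the age effect between sexes (0%) by edgeR or by DESeq2, and 838 had an unadjusted p below 0.05. Wfdc2 stood at -3.40 ± 0.59 in males and -0.79 ± 0.57 in females (edgeR adjusted p of the difference 0.538). Socs2 stood at 0.24 ± 0.14 in males and 0.82 ± 0.14 in females, Cyp2c65 at 1.18 ± 0.22 and 0.30 ± 0.22, and Ggt6 at 0.98 ± 0.19 and 0.25 ± 0.19, with adjusted p of the difference of 0.567, 0.571 and 0.594. The second principal component, with 8.2% of the variance, set the 7 aged males (12.1 to 25.6) above aged females (-18.8 to -4.87), young males (-17.9 to -0.21) and young females (-17.3 to -2.84). Xist, which female cells express from the inactive X chromosome, and the Y-linked Eif2s3y weighed most on it (weights -0.165 and 0.155). Next came the Y-linked Ddx3y (0.101) and the genes called for age Slc28a2 (-0.0773) and Wfdc2 (-0.0725). Ceacam10, also called for age, weighed at its high end (0.0527). Without the 3 aged males of 26 and 27 months 39 genes were called, 32 of them among the 42.

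The same contrast was set beside that of progenitors, sorted as GFP medium to low (10 aged and 10 young mice), and Paneth cells, sorted as CD24 high and GFP negative (12 aged and 12 young mice). Aged mice were 23 to 27 months old and young mice 2 to 3 months, of the same strain and allele, and partly the same animals as the ISC samples (10 gave ISCs and progenitors, 15 gave ISCs and Paneth cells, where a pair of similar names was counted apart and may be 1 aged male). In progenitors 86 of 11812 genes were called (0.728%), and 16 of these were among the 42, which is 38.1% of the ISC genes and 18.6% of the progenitor genes. They were 12 higher, among them Ly6e, Prss32, Ceacam10, Parp3, Gm15947, Zfp990, P2rx7, Tmem205, Tnfsf13os, Id3 and Slc39a4, and 4 lower (Slc28a2, Tceal8, Nrn1 and Cdc42bpg), with the same direction in both cell types. In Paneth cells 8 of 11663 genes were called (0.0686%), and 4 were among the 42 (9.52% of the ISC genes, 50% of the Paneth genes), namely Ly6e, Ceacam10, Gm1123 and AI427809. Samples of the same animal share their source, so these overlaps are no independent replication. Mitochondrially encoded genes took a large share of Paneth counts, such as 45.5% in aged male replicate 2 and 73.4% in young male replicate 4. In ISC samples they took 3.60 to 9.69%. A smaller share of Paneth counts was thus left for other genes, and CPM are not on a like scale between these cell types. The effect of this on the number of calls was not tested.

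A test of the difference itself called 2 of 12680 genes between ISCs and progenitors (0.0158%), and 608 had an unadjusted p below 0.05. For 5330417C22Rik the age effect was larger in ISCs by 1.39 ± 0.24 (edgeR adjusted p 0.00491). It averaged 120 ± 29.8 CPM in aged and 112 ± 27.8 CPM in young progenitors (SD), a log2 change of 0.10 ± 0.15 with an adjusted p of 0.917, and it stood at 0.33 ± 0.20 in Paneth cells. In ISCs the median was 69.0 CPM in aged and 23.2 CPM in young samples. For Ly6e the age effect was larger in ISCs by 0.64 ± 0.12 (adjusted p 0.0201), a call lost under the replicate block (0.377) and without aged female replicate 1 (0.0736), young male replicate 1 (0.0539) or young male replicate 4 (0.0529). It averaged 1006 ± 144.2 CPM in aged and 490 ± 57.6 CPM in young progenitors, a change of 1.03 ± 0.09, and 365 ± 44.8 CPM in aged and 186 ± 53.4 CPM in young Paneth cells, a change of 0.98 ± 0.13. No progenitor library has a name ending in 1. With ISC libraries limited to the other endings, a fit chosen after seeing the data, the differences were 1.31 for 5330417C22Rik and 0.44 for Ly6e, and edgeR called neither (adjusted p 0.106 and 0.677). Nrn1 fell by more in progenitors, at -3.05 against -1.43 in ISCs, but this difference of 1.62 ± 0.48 did not pass (adjusted p 0.592). Between ISCs and Paneth cells edgeR called none of 12863 genes (0%), 802 had an unadjusted p below 0.05, and DESeq2 called 3.

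**Figure D5:**
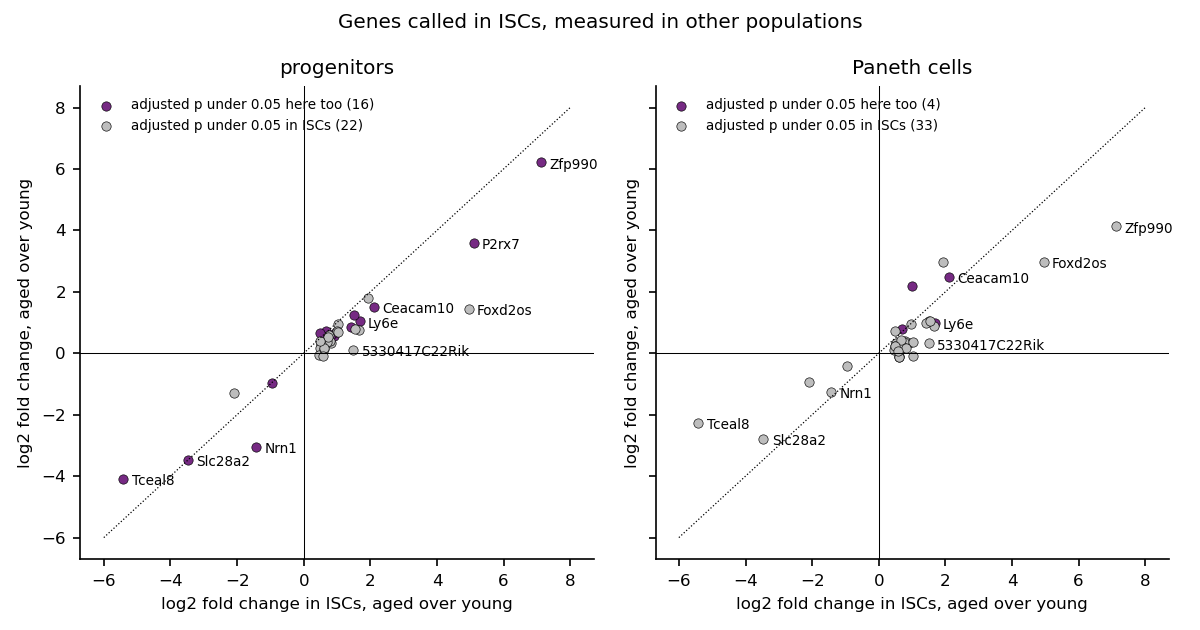
Log2 change with age of the 42 genes in progenitors (left, 38 measured) and Paneth cells (right, 37 measured) against their change in ISCs, with genes called in both cell types coloured and a dotted line where both changes are equal. The 16 genes called in progenitors and the 4 called in Paneth cells lie on the same side of 0 in both, and 5330417C22Rik lies near 0 in progenitors.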

How the data were processed

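Counts per gene and counts per M (CPM) were deposited by the authors for each library, and the deposited CPM equalled the counts scaled to the library total within 4.95e-10. Per the submitters' processing notes, cutadapt 3.0, STAR 2.7.9a, HTSeq 0.13.5, DESeq2 1.30.1 and mm10 were used; no source used here states the annotation or whether strand was used to count. All tests here used the deposited counts of 32285 genes, of which 127 had no symbol (0.0026% of ISC counts) and were kept under their identifier. Samples were grouped by the labels' titles and descriptions. Technical Paneth libraries were summed per animal, giving 67 samples in all.

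Genes were kept with filterByExpr (minimum count 10), scaled by TMM and tested with edgeR 4.0.16 (quasi-likelihood F test, robust, R 4.3.3) with age and sex as 4 groups; contrasts were aged minus young averaged over sexes, within each sex, and their difference. Age effects were compared between cell types in a joint fit. With the animal as a random block in limma-voom (consensus correlation 0.156 with progenitors, 0.0801 with Paneth cells) these comparisons had 2 and 0 calls, as without it. A gene was called at a Benjamini-Hochberg adjusted p below 0.05, and changes are log2 ± SE. The biological coefficient of variation was 0.433, and the script was tested on simulated data. Marker sums (log2, pseudocount 1 CPM) and the mitochondrial share were tested by 100000 permutations of age within sex. Intervals cover counting error only. DESeq2 1.42.0, limma 3.58.1 (voom), other scalings and filters, covariates, subsets and leaving out each sample were tried as alternatives. Samples that share a replicate number were not paired by it (31 pairs, median r of deviations from group means 0.0132). Xist and Eif2s3y placed all 23 samples in their labelled sex.

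The members, the 38 gene lists and the tests were chosen with earlier results of these data known. Named genes were called genes, list members with the smallest p and the next genes past the threshold. Of the 42 called genes, 2 are not reported here. Coordinates are GRCm38 in GENCODE M21.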

Additional observations from a re-analysis of the deposited data

Results flagged for a closer look

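Among 184 groups of 4 to 10 samples examined, 28 held a sample far from the others of its age and sex. The rule flags about 1 in 20 groups of normally spread values, which values of genes near 0 are not. A group whose other samples are all at 0 is flagged by any count, so the 28 cannot be set against that rate. Aged samples that stood high, each with the nearest other value of its group in brackets, were female replicate 1 for Ly6e at 1444 CPM (1099), female replicate 2 for Slc28a2 at 18.3 CPM (4.06), for Gadd45g at 105 CPM (52.0) and for the immune marker sum at 446 CPM (15.8), and female replicate 3 for Fam20a at 44.0 CPM (24.7) and Myl9 at 1.67 CPM (0.460). Ddo reached 19.6 CPM in female replicate 5 (12.3) and 45.2 CPM in male replicate 3 (13.3), a sample that also had 0.185 CPM of H2afy2 (0). Tceal8 had 3.59 CPM in male replicate 1 (0), P2rx7 had 12.2 CPM in male replicate 2 (3.29) and Zfp105 had 2.20 CPM in male replicate 7 (0).

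Young samples that stood high were female replicate 4 for Ly6e at 480 CPM (366), female replicate 6 for Ddo at 11.7 CPM (5.07), male replicate 3 for Zfp990 at 0.185 CPM (0) and male replicate 4 for the Paneth marker sum at 986 CPM (761). Female replicate 1 stood high for Foxd2os at 0.656 CPM (0.214), for the stromal marker sum at 21.0 CPM (11.04) and for the Paneth marker sum at 2246 CPM (963), and low for Socs2 at 127.996 CPM (176). Female replicate 2 stood high for Zfp990 at 0.214 CPM (0), P2rx7 at 2.36 CPM (0) and Zfp105 at 7.72 CPM (3.90), and low for Wfdc2 at 4.93 CPM (16.8). Low values were also those of male replicate 1 for Tmem205 at 48.3 CPM (78.1) and Ogfr at 64.4 CPM (96.2), of female replicate 3 for Id3 at 67.6 CPM (146), and of male replicate 3 for Foxd2os, listed at 0 CPM (0.717).

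The age effect differed between cell types, by the test of the difference, for 5330417C22Rik (1.39 larger in ISCs than in progenitors, edgeR adjusted p 0.00491) and for Ly6e (0.64 larger, adjusted p 0.0201). Neither was called with ISC names not ending in 1 only (1.31 and 0.44, adjusted p 0.106 and 0.677).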

How the results depend on the processing

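Over the alternatives none of the 42 genes changed sign, 31 stayed called whichever single sample was left out, and 7 stayed called in every alternative run. With DESeq2 all 42 and a further 66 genes were called, rounded 1.1e+02 in all (91 in males, 22 in females). The count was 65 with the class of name ending as a covariate and 45 with the 3 name endings as covariate (33 shared). It was 18 within names ending in 1, 21 within the others and 23 when a fold of 1.2 had to be exceeded. It ranged from 36 (without young female replicate 5) to 58 (without young male replicate 3) with single samples left out, from 18 to 36 in males and from 8 to 14 in females. With limma-voom 45 genes were called, 34 of them among the 42. Zfp990, Myl9, H2afy2, Ptpn6, Cdk2ap2, Ogfr, Gadd45g and Slc39a4 were not. With the replicate block, for numbers that are not shown to pair samples, 42 genes were called (37 shared), 7 for the difference between sexes and 1 for the difference from progenitors (1 to 2 with samples left out; Ly6e was lost). With ISC names not ending in 1 only, 2 genes differed from progenitors, neither of them Ly6e or 5330417C22Rik. The difference from Paneth cells had 3 calls with DESeq2 and 3 without scaling (0 to 2 with samples left out).

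Sums near 0 changed sign. The immune sum was -0.25 without aged female replicate 2 (-0.25 to 0.41 with single samples left out) and -0.11 within names not ending in 1. The Paneth sum was -0.018 unscaled, -0.50 within names not ending in 1 and -0.14 to 0.17 with samples left out, and the enterocyte sum was -0.0012 unscaled and -0.0097 to 0.037. The enteroendocrine sum ranged from 0.97 to 1.39, with an adjusted p of 0.00312 without aged male replicate 4. Within names not ending in 1, uncalled genes of the lists changed sign: Irf7 -0.25, Gpx2 -0.21, Nfkbia -0.28, Cd79b 0.057, Spred1 0.47, Cd74 -0.27, Vwf -0.63, Matk -1.06 and Lyz1 -0.88. Lyve1 did so within names ending in 1 (-0.34). With single samples left out Tas1r3 spanned -0.036 to 1.59, Pdgfrb -0.37 to 0.32 and Lyz1 -0.18 to 0.28. Pdgfrb was -0.43 with voom, -1.11 with the replicate block and -0.068 with the class covariate. Lyz1 was -0.070 with voom, -0.0065 unscaled, -0.12 with 3 name endings as covariate, -0.19 with the class covariate, -0.012 without sex in the design and -0.056 with the immune sum as covariate. The causes were not tested. Depth limits the 6 called genes under 5 CPM on average, for which a few counts set the size of the change.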
